A study of Mus musculus with 3 samples.

Results

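The septin genes examined here are the 9 members Sept2, Sept4, Sept5, Sept6, Sept7, Sept8, Sept9, Sept10 and Sept11, found by their Ensembl identifiers among the 39304 rows of the deposited table. The family was chosen by the mean FPKM of Sept2, which had rank 7 of all rows, so the septin levels are a description and were not tested. The other septin genes, Sept1, Sept3, Sept12 and Sept14 (4 in all), were added to complete the subgroups. The source was kidney glomeruli of wild-type male C57BL/6 mice at 8 weeks of age, collected with magnetic beads and taken apart with enzymes; how many mice were used is not stated in the labels. Cells were caught singly on a Fluidigm C1 chip, which lysed each one and made its cDNA, and each cell's identity came from qPCR of glomerular markers. A single pool was made of cDNA from 15 mesangial cells (contractile cells that support the capillary loops) and 15 endothelial cells (the capillary lining), and 3 aliquots of that pool became the 3 libraries. There is therefore 1 group and no contrast, and every SD below is over these 3 aliquots (n = 3) and measures library construction and sequencing only.

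Septins are GTP-binding proteins that assemble end to end into rods, and rods join into filaments and rings on membranes, actin bundles and microtubules. Mammalian septins fall into subgroups named after SEPT2, SEPT6, SEPT7 and SEPT9, and a rod takes its subunits from different subgroups, with SEPT7 as the only member of its own. Rods occur in a shorter form without and a longer form with a subunit of the SEPT9 subgroup. Septins act as scaffolds in cytokinesis and as diffusion barriers, and they cross-link actin in non-dividing cells.

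The libraries held 9141422, 10427635 and 10976563 reads in aliquots 1, 2 and 3, as recovered from the steps between low values of FPKM, the fragment number scaled to gene length and library size. Of the fixed marker genes, 6 of 6 mesangial and 6 of 6 endothelial ones reached 1 FPKM in all 3 aliquots, the limit used here for a detected gene, with medians of 809 and 215 FPKM. Their summed levels over the aliquots were 7064 to 7436 FPKM (mesangial) and 2146 to 2201 FPKM (endothelial). Podocyte markers were detected for 5 of 5, with a median of 37.6 FPKM and a summed level of 272 to 288 FPKM. Smooth muscle markers were detected for 3 of 4 (Cnn1 listed at 0), with a median of 38.8 FPKM and a summed level of 144 to 156 FPKM. Listed at 0 were the proximal tubule markers Lrp2, Slc34a1 and Slc5a2, the macrophage markers Ptprc, Adgre1, Csf1r and Cd68, the platelet markers Pf4, Itga2b and Gp9, and the neural markers Tubb3, Snap25 and Rbfox3. The fourth neural marker, Syp, had 2.25 ± 0.612 FPKM. In a mixed pool the cell type that made a septin transcript cannot be told apart, nor can fewer cells of a type from less RNA per cell, and the part of podocyte and smooth muscle RNA in the septin levels was not tested.

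Of the 9 members, 8 were detected and Sept5 was listed at 0, against 21.7% of all rows detected. The members spanned a wide range, from 16.05 FPKM for Sept9 to 4927 FPKM for Sept2. The median over all 9 members was 22.7 FPKM, beside 10.6 FPKM over the 11142 rows above 0 and 0 over the whole table. The family, all 13 genes, added up to 6681 ± 40.1 FPKM and took 1.08% ± 0.00624 of all reads. Sept2 alone made 73.8% ± 0.0243 of the family's summed FPKM and 60.8% ± 0.0394 of its reads. The read shares of Sept2 and of the family, here and below, rest on inferred gene lengths. A doubled Sept2 length, which also gives whole reads, would raise them.

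**Figure D1:**
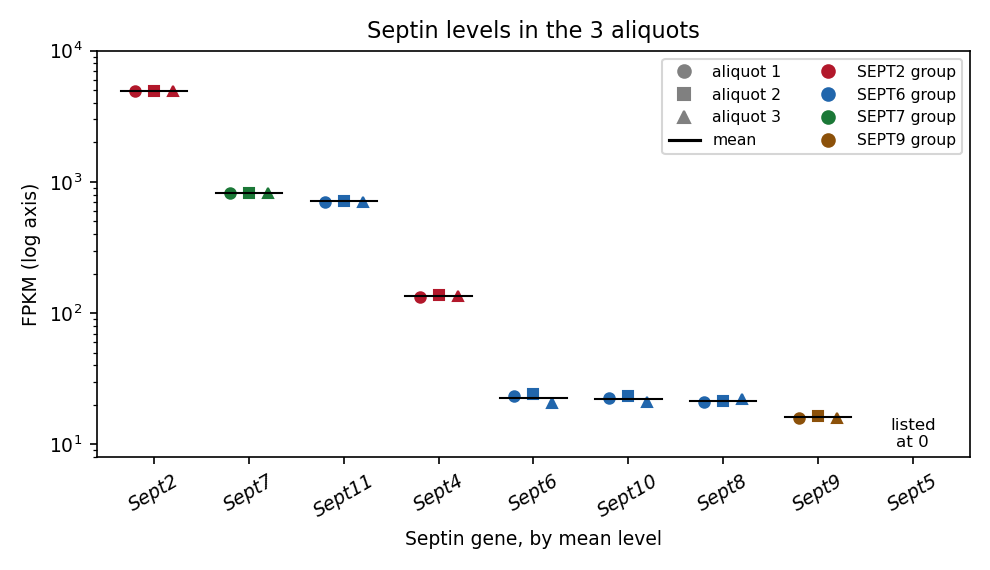
FPKM of the 9 septin members (log axis) in each of the 3 aliquots, with the mean as a line and colours for the subgroups. Sept2 had a mean of 4927 FPKM, Sept7 824, Sept11 711 and Sept4 136, the other detected members between 15.8 and 24.2, and Sept5 was listed at 0.

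The SEPT2 subgroup, which occupies the ends of the rod, was represented almost entirely by its name-giving gene. Sept2 (ENSMUSG00000026276, chromosome 1, 93478964 to 93510260, plus strand, GRCm38 in the GENCODE M21 annotation), one of the most widely expressed septins, had 4914, 4963 and 4905 FPKM in aliquots 1, 2 and 3. The aliquots lay within 1.01-fold of each other and Sept2 had rank 7 in each. The mean was 4927 ± 31.2 FPKM, or 0.659% ± 0.00417 of all reads. Its neighbours in the ranking were the mitochondrial transcripts mt-Co2 (7642 ± 129 FPKM) and mt-Cytb (6005 ± 50.9 FPKM) above it, and the G protein subunit gene Gnb1 (4028 ± 30.8 FPKM) and mt-Co1 (3960 ± 70.3 FPKM) below it. No aliquot of a neighbour overlapped the Sept2 range, since the nearest value above was 5949 and the nearest below 4053 FPKM. Sept4 (ENSMUSG00000020486, chromosome 11, 87568903 to 87590539, plus strand), known for its role at the sperm annulus and for an apoptotic splice form, had 134, 138 and 136 FPKM. That was 36.3-fold below Sept2, a mean log2 ratio of Sept2 to Sept4 of 5.18 ± 0.02. The ratio was 22.1-fold with reads divided by the longest transcript and 51.8-fold by coding length. Sept5 (ENSMUSG00000072214, chromosome 16, 18620502 to 18629954, minus strand), a septin of neurons and platelets that binds syntaxin, was listed at 0 in each aliquot, and so was Sept1. Of the summed FPKM of Sept2 and Sept4, the 2 genes of the subgroup with a value, Sept2 held 97.3% ± 0.0279.

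A listed 0 was not read as absence. The splicing factor gene Srsf4 and the cytochrome oxidase assembly gene Cox20, which most cells use, were listed at 0 as well, and both were named after their values were seen. Sept5 also shares 1902 bases with the platelet glycoprotein gene Gp1bb on the same strand, which was likewise listed at 0, and how the authors' counting treated shared bases is not given in the sources used here. Where a 0 stands for no reads, 3 reads were taken as the upper limit of the expected number. They correspond to 0.328, 0.288 and 0.273 RPM (reads scaled to library size alone) in aliquots 1, 2 and 3. When the reads of the aliquots are pooled they correspond to 0.0982 RPM, a limit that covers counting error alone.

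SEPT7, the subunit without a substitute, was encoded by the second most abundant member. Sept7 (ENSMUSG00000001833, chromosome 9, 25252439 to 25308571, plus strand) had 826, 824 and 821 FPKM in aliquots 1, 2 and 3, with rank 71 by the mean. Its spread was the smallest of the members, a coefficient of variation of 0.305%. Sept2 exceeded Sept7 by 5.98-fold in FPKM (log2 ratio 2.58 ± 0.01), and the 3 aliquots gave 2.57, 2.59 and 2.58.

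In the SEPT6 subgroup, whose members take the position between SEPT2 and SEPT7 in the rod, 1 of 5 genes dominated. Sept11 (ENSMUSG00000058013, chromosome 5, 93093437 to 93176447, plus strand), a filament subunit found along actin stress fibres, had 707, 716 and 710 FPKM and rank 83. It held 91.4% ± 0.264 of the summed FPKM of the 4 genes of the subgroup with a value. Sept7 lay above Sept11 in every aliquot by a small margin, 1.16-fold or a log2 ratio of 0.21 ± 0.01, and their ranges did not overlap. Sept11 exceeded Sept6 by 31.3-fold, Sept10 by 31.8-fold and Sept8 by 33.0-fold in FPKM. With reads divided by the longest transcript these ratios were 26.2-fold, 15.8-fold and 31.6-fold. Sept6 (ENSMUSG00000050379, chromosome X, 36911326 to 36991794, minus strand), the subgroup's name-giving gene, had 23.3, 24.2 and 20.8 FPKM. Sept10 (ENSMUSG00000019917, chromosome 10, 59141627 to 59221847, minus strand) had 22.7, 23.4 and 21.03 FPKM, and Sept8 (ENSMUSG00000018398, chromosome 11, 53519257 to 53549565, plus strand), which binds the vesicle protein VAMP2, had 20.9, 21.5 and 22.3 FPKM. The ranges of Sept6 and Sept10 overlapped, as did those of Sept10 and Sept8, so no order was read among these genes. Sept14 was listed at 0.

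The SEPT9 subgroup, whose subunit is present only in the longer rod, was the lowest. Sept9 (ENSMUSG00000059248, chromosome 11, 117199661 to 117362325, plus strand) had 15.8, 16.5 and 15.8 FPKM, a mean of 16.05 ± 0.428 FPKM at rank 4717. It lay below Sept8 in every aliquot, 1.34-fold by the means, with no overlap. Sept3, a neuronal septin, and Sept12, a septin of the testis, were listed at 0. Sept7 exceeded Sept9 by 51.3-fold and Sept2 exceeded it by 307-fold, with log2 ratios of 5.68 ± 0.04 and 8.26 ± 0.03.

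Summed by subgroup, FPKM was 5063 ± 32.9 for the SEPT2 subgroup, 824 ± 2.51 for SEPT7, 778 ± 6.56 for the SEPT6 subgroup and 16.05 ± 0.428 for the SEPT9 subgroup. Genes listed at 0 add nothing to these sums, so sums and shares cover the genes with a value. The sums make up 75.8% ± 0.0441, 12.3% ± 0.0788, 11.6% ± 0.0302 and 0.240% ± 0.00496 of the family sum. The SEPT7 and SEPT6 subgroups were thus nearly level: their log2 ratio was 0.09, 0.07 and 0.09 in the 3 aliquots, 0.08 ± 0.01 in the mean, or 1.06-fold. The SEPT2 subgroup exceeded SEPT7 by 6.15-fold and the SEPT6 subgroup by 6.51-fold. These ratios compare transcript levels per length and carry no information on protein amounts or on which rods were assembled.

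**Figure D2:**
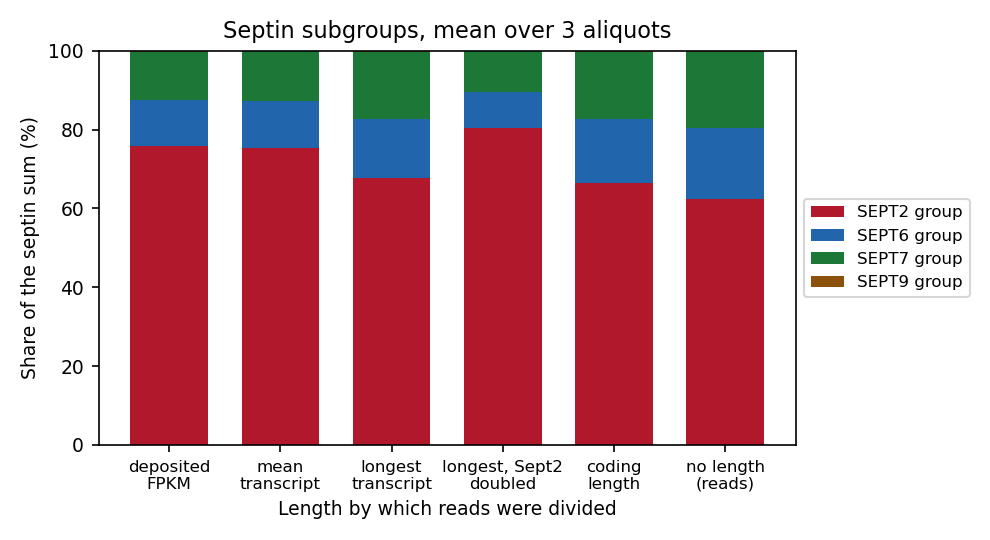
Share of the summed septin level held by each subgroup (bars, percent, mean over 3 aliquots), with reads divided by different gene lengths or by none. The SEPT2 subgroup held between 62.4% and 80.5%, and the SEPT9 subgroup, between 0.181% and 0.361%, is too small to be seen. A doubled Sept11 length is not included and would lower the SEPT2 share in each bar except that of the deposited FPKM.

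Levels of different genes depend on the length by which reads were divided, and how far each septin moved depended on the length chosen. The deposited values imply 60063, 69194 and 71985 Sept2 reads and a gene length of 1337 bases. GENCODE M21 lists 13 transcripts of this gene, from 418 to 3779 bases with a mean of 1053, so the implied length is 35.4% of the longest. For Sept4, Sept6, Sept8 and Sept9 the implied length lay within 1 base of the mean M21 transcript length, while for Sept2, Sept7, Sept10 and Sept11 it was longer than that mean by 284 to 738 bases. For Sept9 this match was set by the recovery, which prefers a multiple near the mean. Its 352, 420 and 422 reads and its 2434 bases are all even, so a smaller length also gives whole reads. That length would lower the Sept9 reads and its levels at other lengths. Divided by the longest M21 transcript of each gene, Sept2 went from 4927 to 1743 ± 11.03 RPKM (the same scale as FPKM, recomputed from recovered reads) and from rank 7 to rank 13. Its excess over Sept7 fell from 5.98-fold to 3.82-fold. In the ranks by longest or mean transcript, rows without an M21 match kept their deposited FPKM. Divided by the mean M21 transcript length Sept2 had 6259 ± 39.6 RPKM and rank 6. By reads alone, with no further length and the reads implied by 1337 bases, it had rank 8. A doubled length, 2674 bases with 402484 reads in total, would give the same FPKM and still lie within the longest transcript; rescaled to that transcript it gave 3487 ± 22.1 RPKM and rank 8. Sept7 and Sept11 had 457 ± 1.39 and 354 ± 2.32 RPKM with the longest transcript. By coding length they had 1588 ± 4.84 and 1371 ± 8.99 RPKM, and Sept2, with the reads implied by 1337 bases, had 6066 ± 38.4 RPKM. As a fold change over the deposited values, the rise was larger for Sept7 and Sept11 than for Sept2 at that length. Among the other members only Sept11 allows such a doubling within its longest transcript (5008 of 5028 bases). M21 also places a further Sept2 gene model (ENSMUSG00000116048) over 30741 bases of the same strand, with no row in the table.

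With the reads recovered at the implied lengths, the order Sept2, Sept7, Sept11, Sept4 was the same with the deposited lengths, the mean or longest transcript and the coding sequence. Sept9 was the lowest detected member with each, and only the order of Sept6, Sept8 and Sept10 changed. A rescaling with the doubled Sept11 length was not run. That length gives Sept11 108782 reads in total, against 63728 for Sept7. It would put Sept11 above Sept7 with the mean or longest transcript and the coding sequence. The implied length of Sept10, 2539 bases, is close to its longest transcript of 2532. With the longest transcript of each gene Sept10 therefore stayed at 22.4 ± 1.22, while Sept6 fell to 13.5 ± 1.06 and Sept8 to 11.2 ± 0.362 RPKM.

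**Figure D3:**
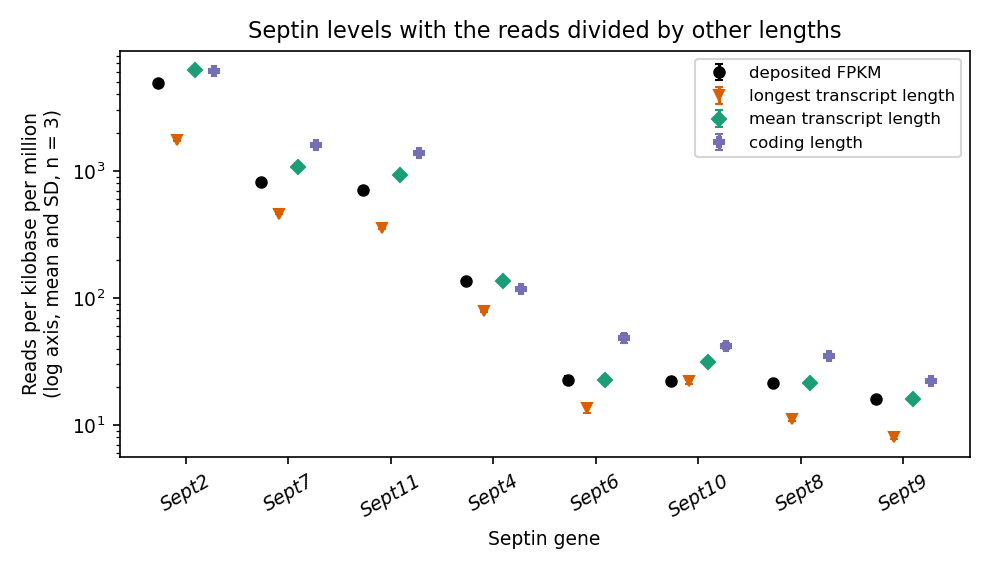
Levels of the 8 detected septins (RPKM, log axis, mean with SD over 3 aliquots) with the deposited values and with reads divided by the longest or mean annotated transcript or the longest coding sequence. Sept2 was highest with each length, from 1743 to 6259, and Sept9 lowest, from 8.04 to 22.3.

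The spread between aliquots was not used to choose the genes and was tested. A chi-square test of the recovered reads against the library totals, with Benjamini-Hochberg adjustment over 9120 genes of at least 30 reads, called 0 of the 8 septins with reads, while it called 1.09% of all genes tested. That background rested largely on aliquot 1: the test called 99 genes with all aliquots, 2 of 8847 without aliquot 1, 98 without aliquot 2 and 65 without aliquot 3. At an unadjusted p under 0.05 the test gave 1 septin, Sept6, and 11.4% of all genes. For Sept6 the reads were 592, 701 and 633, lowest in aliquot 3 relative to the totals (chi-square test across all genes, p = 0.015, adjusted p = 0.28). For Sept2 the adjusted p of the same test was 0.48, and 0.15 if its reads are doubled. The coefficient of variation was 0.633% for Sept2, 0.656% for Sept11 and 1.54% for Sept4, beside medians of 1.67% over the 51 genes above 1000 FPKM and 2.16% over the 1118 genes from 100 to 1000 FPKM. It was 7.85%, 5.42%, 3.23% and 2.66% for Sept6, Sept10, Sept8 and Sept9, beside 4.05% over the 4497 genes from 10 to 100 FPKM. Reads of amplified cDNA are not independent molecules, so the test covers counting error only.

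The GTP-binding P-loop is a stretch that septins share, and its codons are printed here to show how the members differ at a conserved site. The pattern searched in frame was a glycine codon, 4 further codons, a glycine codon, a lysine codon and a serine or threonine codon. It occurred once in the longest coding sequence of each of the 13 genes and in 4.33% of 21605 mouse genes. Letters are the coding strand, 5′ to 3′, from GENCODE M21 transcripts on GRCm38, with the codons named in the pattern in capitals.
Sept2: GGTgaatctggtctaGGAAAATCA
Sept4: GGAgaatctggtctgGGTAAATCC
Sept5: GGTgagtccggcctgGGGAAGTCC
Sept6: GGGgagacaggtttgGGCAAGTCC
Sept8: GGCgaaactgggattGGCAAGTCC
Sept10: GGGgagactggaattGGAAAATCA
Sept11: GGTgagacaggtattGGCAAATCC
Sept7: GGTgaatctggactgGGAAAGTCG
Sept9: GGGcagagcggcctcGGGAAGTCC
Of these 24 bases, Sept4 and Sept7 shared 20 with Sept2, Sept10 shared 18, Sept5 and Sept11 17, Sept8 16, Sept6 15 and Sept9 13. In Sept2 the stretch lies at bases 130 to 153 of the coding sequence, in exons 3 and 4 of 13 (chromosome 1, 93491277 to 93495601, plus strand). An intron follows the first base of the stretch in all 13 septin genes, from 83 bases in Sept1 to 12047 bases in Sept7, and it has 4301 bases in Sept2.

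Over whole coding sequences, the 9 member pairs within a subgroup had 65.5% to 75.1% identical aligned bases (median 71.0%), and the 27 pairs across subgroups 58.1% to 67.7% (median 61.6%), so the ranges overlapped. The closest pair was Sept6 and Sept11. Sept2 stood nearly as close to Sept7, 67.7%, as to its subgroup partner Sept4, 67.8%, and it was farthest from Sept11, 58.1%. Sept6 and Sept11, the most alike in sequence, differed 31.3-fold in FPKM. No transcript of another gene matched a member over at least 200 bases at 90% identity or more, apart from the second Sept2 model and the overlapping genes at the Sept5 locus, Gp1bb and Gm49601.

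**Figure D4:**
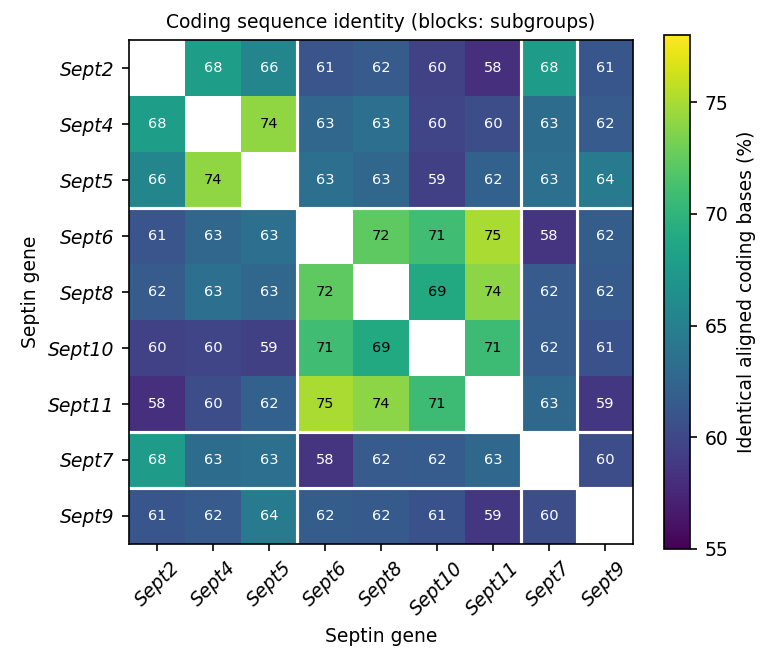
Percent of aligned coding bases that are identical between each pair of septin members (colour and number, rounded), with white lines between the subgroups. Sept4 and Sept5, and the pairs of the SEPT6 subgroup, stood out at 68.9% to 75.1%, and Sept2 was about as close to Sept7 as to Sept4.

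Promoters of the highest and the lowest detected member are shown side by side because these genes lay at the ends of the family's range, 307-fold apart in FPKM. Each is the 250 bases before the most upstream RefSeq start (GRCm38.p6), 5′ to 3′ on the gene's strand, with GC boxes (GGGCGG on either strand) in capitals.
Sept2, chr1:93478743-93478992, plus strand: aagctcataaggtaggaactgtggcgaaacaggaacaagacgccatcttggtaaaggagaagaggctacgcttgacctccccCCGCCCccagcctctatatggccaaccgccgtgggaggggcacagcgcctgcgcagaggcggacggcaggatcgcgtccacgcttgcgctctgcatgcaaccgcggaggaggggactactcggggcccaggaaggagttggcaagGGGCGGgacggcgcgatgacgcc
Sept9, chr11:117199411-117199660, plus strand: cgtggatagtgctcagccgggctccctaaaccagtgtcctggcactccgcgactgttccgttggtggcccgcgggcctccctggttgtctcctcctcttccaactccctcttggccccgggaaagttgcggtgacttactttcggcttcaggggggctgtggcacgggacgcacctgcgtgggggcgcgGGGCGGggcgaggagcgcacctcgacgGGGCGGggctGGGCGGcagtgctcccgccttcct
Sept2 had 64.8% G and C with 2 GC boxes and a CpG observed-to-expected ratio of 0.847, and Sept9 69.6% with 3 boxes and a ratio of 0.761. Over 27025 mouse promoters the medians were 52% and 0.379, and 33.0% held a GC box. Of the 7 members with a RefSeq promoter 3 held a GC box, Sept2, Sept9 and Sept10, and none was found in those of Sept4, Sept7, Sept8 and Sept11. The promoter of Sept4, whose RefSeq start (chromosome 11, after base 87566688) lies upstream of the M21 gene, had 40% G and C and a ratio of 0.101. The RefSeq starts of Sept7 and Sept11 also lie upstream of the M21 gene, and those of Sept2, Sept8 and Sept10 lie inside it. CCAAT boxes (CCAAT) and TATA boxes (TATAAA), searched on both strands, were found in none of the 7 members with a RefSeq promoter, while 34.5% and 13.0% of all promoters held one. Which start was used was not measured.

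Genes that bind or regulate septins were examined as a list of 22, of which 18 were detected, against 21.7% of all rows. Their median was 11.9 FPKM, beside 10.6 FPKM over rows above 0. Cdc42, the small GTPase whose Borg effectors bind septins, had 514, 509 and 509 FPKM, and all 5 Borg genes were detected. Cdc42ep3 led them with 65.8 ± 1.13 FPKM, followed by Cdc42ep4 (14.4 ± 0.936 FPKM), Cdc42ep1 (5.96 ± 0.631 FPKM), Cdc42ep2 (5.44 ± 0.818 FPKM) and Cdc42ep5 (1.97 ± 0.912 FPKM, from 37 reads).

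The non-muscle myosin gene Myh9, whose product binds septin filaments, had 437, 345 and 353 FPKM, with aliquot 1 above the others. It was the only one of the 18 partners with reads that the chi-square test across all genes called (adjusted p = 4.2e-72). Myh10, the other non-muscle myosin, had 56.5 ± 2.60 FPKM and Map4, a microtubule-associated protein gene whose product binds septins, 64.8 ± 1.08 FPKM. Anillin (Anln), which recruits septins to the cleavage furrow, and the exchange factor gene Ect2 were listed at 0, and citron kinase (Cit) had 3.78 ± 0.220 FPKM. Of the exocytosis genes, Exoc4 had 9.42 ± 0.648 FPKM and Vamp2 7.62 ± 0.904 FPKM. The syntaxin gene Stx1a, whose product binds SEPT5, was listed at 0, as were Sept5 and 28162 of the 39304 rows in all. The other binding partners on the list were Hif1a with 83.2 ± 3.13 FPKM, Xiap with 48.4 ± 0.936 FPKM, the replication origin gene Orc6 with 34.9 ± 1.25 FPKM and Cd2ap, a slit diaphragm adaptor of podocytes, with 28.6 ± 0.723 FPKM.

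**Figure D5:**
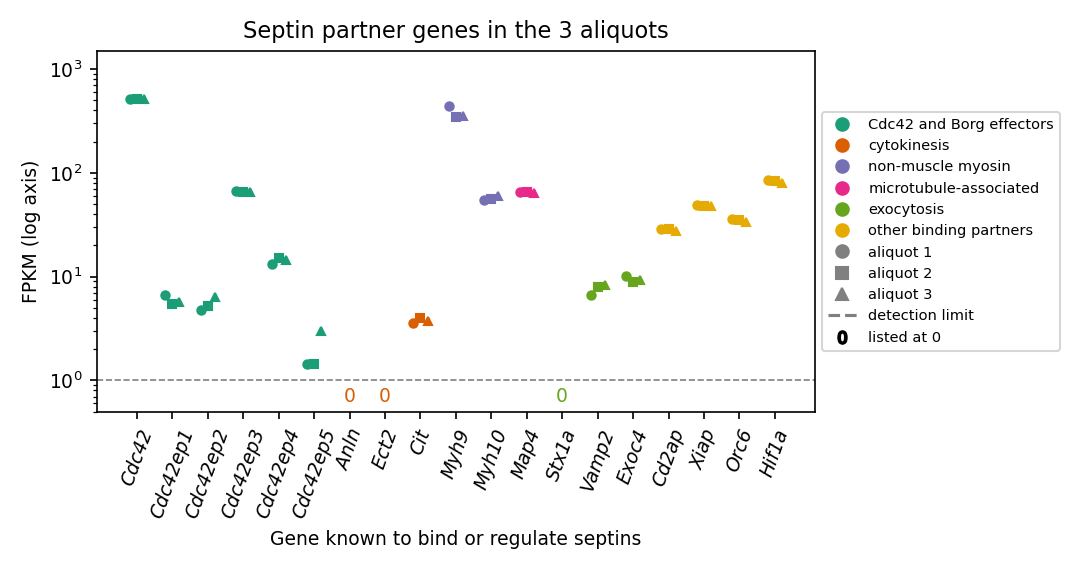
FPKM (log axis) of genes known to bind or regulate septins in each of the 3 aliquots, coloured by role, with the detection limit of 1 FPKM as a dashed line. Of the genes shown Cdc42 and Myh9 were highest, and Anln, Ect2 and Stx1a were listed at 0.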

How the data were processed

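One table with 3 columns was used, 1 per aliquot, matched to the samples by their titles. The authors deposited FPKM per gene. Per the submitters' processing notes TopHat2 2.0.12, HTSeq 0.6.1 and GRCm38 were used. The sources used here do not give the annotation release, the strand setting or how gene length was defined. GENCODE M21 on GRCm38 supplied symbols (37607 identifiers matched) and transcript lengths. Promoters came from RefSeq on GRCm38.p6, where 7 of the 9 members were found.

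Reads were recovered from the FPKM steps. Each library total was taken as the mode of the totals implied by values under 0.5 FPKM, if these stood for 1 read of a gene of mean transcript length, and each gene's length was the smallest that made all 3 read numbers whole within 0.0001. A multiple of it within 1 base of the mean transcript length was taken instead for 374 genes, Sept9 among them. All 11142 rows above 0 had a solution, and their reads add up to 96.7% of each total. No count model was run. The recovery was tried on simulated data in which every gene had its mean transcript length. That trial did not cover lengths away from the mean, as implied for Sept2, Sept7, Sept10 and Sept11. The chi-square test was tried on the simulated reads themselves, not on recovered ones.

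The members and lists were chosen with earlier results of these data known. Genes named were all septins, the partners, the 2 ranked next to Sept2 on either side and up to 3 detected markers per cell type; markers and checks listed at 0 were added. Coding sequences were aligned with Biopython 1.88, near copies sought with BLAST 2.17.0. The comparison of protein sequences was not run; coding bases were compared instead. Alternatives covered gene length, detection limit, read minimum, pseudocount and each aliquot left out. The values of 3 of the 22 partners are not reported here, though the counts and the median of the list include them.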

Additional observations from a re-analysis of the deposited data

How the results depend on the processing

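Of the septins 8 were detected and 0 were called by the chi-square test under each alternative run. With 3 aliquots, leaving 1 out cannot move a mean by as much as 1 SD, so the ranges that follow are given as values and say nothing of stability. The range of log2 ratios without an aliquot was 2.61 to 2.62 (SEPT2 over SEPT7 subgroup), 2.70 throughout (SEPT2 over SEPT6), 0.08 to 0.09 (SEPT7 over SEPT6) and 5.67 to 5.70 (SEPT7 over SEPT9). No direction was reversed in the alternatives run. A doubled Sept11 length was not among them. It would place the SEPT6 subgroup above SEPT7 with the mean or longest transcript and the coding length, the reverse of the order given here. Gene length moved the values. With the longest transcript Sept2 had 1743 and rank 13, the subgroup shares (SEPT2, SEPT6, SEPT7, SEPT9) were 67.8%, 14.9%, 17.0% and 0.299%, and the log2 ratios in the order above were 1.996, 2.18, 0.19 and 5.83. With the mean transcript Sept2 had 6259 and rank 6, the shares were 75.4%, 11.8%, 12.6% and 0.189%, and the ratios 2.58, 2.68, 0.10 and 6.06. With the highest member of each subgroup the shares were 76.1%, 11.0%, 12.7% and 0.248%. A pseudocount of 1 FPKM gave 5.60 for SEPT7 over SEPT9, and among protein-coding genes Sept2 had rank 6. Further alternatives were chosen after seeing the data. By reads with no length, and the reads implied by 1337 bases, Sept2 had rank 8. With its length doubled and the longest transcript it had rank 8, shares of 80.5%, 9.05%, 10.3% and 0.181%, and ratios of 2.96, 3.15, 0.19 and 5.83. By coding length the shares of the first 3 subgroups were 66.6%, 16.1% and 17.1%, and the ratios 1.96, 2.05 and, for SEPT7 over SEPT9, 6.15. Of the 22 partners 14 reached 5 FPKM. No paired analysis was possible because there is 1 group. The 3 libraries share 1 cDNA pool, so no value has a check across pools of cells or mice. A listed 0 does not separate absence from a failed estimate or from an expected number under 3 reads.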
